A study of Homo sapiens with 2 samples.

Results

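Barcodes rich in mitochondrial transcripts were examined in single-cell libraries of MDA-MB-231, a breast cancer cell line of mesenchymal appearance. They were selected on their unique molecular identifier (UMI) total and mitochondrial share, namely at least 1000 UMIs and more than 20% of UMIs from the 13 genes whose symbols start with MT-. Of 24571 barcodes with at least 1000 UMIs, 323 met this rule, 141 of 9445 in the D0 library and 182 of 15126 in the D21 library. D0 was 1 library of parental cells kept in medium with 100 µM methionine. D21 was 1 library of revertant cells after 21 days in medium where 100 µM homocysteine took the place of methionine and that held 1.5 µM vitamin B12. The study's methods give dialyzed serum for the custom media, and serum not described as dialyzed for routine culture of this line. They do not say which of these the D0 cells had. They also state that medium was changed daily in the first week of reversion to clear dead cells. Each library came from 1 culture of 1 cell line, so no test between conditions was possible, and all intervals are 95% intervals that cover counting error only. The files hold every barcode, and doublets were kept.

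The mitochondrial genome encodes 13 proteins of the respiratory chain and of ATP synthase, and their mRNAs stay inside the organelle. All other proteins of mitochondria are encoded in the nucleus and made by cytosolic ribosomes. Because mitochondrial RNA is held behind its own membranes, a high MT- share is widely used in single-cell work as a mark of damaged cells or debris, while some healthy cells of high respiration also have one. MALAT1 and NEAT1 are long noncoding RNAs that remain in the nucleus, in speckles and paraspeckles respectively. They therefore help to tell whether a droplet held nuclear RNA, and mRNAs of ribosomal proteins, which are abundant and cytosolic, do so for the cytoplasm.

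The selected barcodes were small. Their UMI total had a median of 3239 in D0 (range 1014 to 25871) and also 3239 in D21 (range 1008 to 24847). Cells of the same library, meaning barcodes at or above a cell cutoff on UMIs set for each library and with at most 20% MT- UMIs, numbered 7492 and 12487 and had medians of 18908 and 12022 UMIs. The MT- share, which chose the barcodes, had a median of 42.7% in D0 (quartiles 29.2% and 77.3%, highest 95.3%) and 33.0% in D21 (quartiles 25.02% and 44.3%, highest 96.1%). In cells the medians were 5.75% and 6.61%. Just inside the threshold lay barcodes with 20.2% MT- UMIs in both libraries, and just outside it were barcodes with 19.5% in D0 and 19.99% in D21. There was no gap at the threshold, since D0 had 8 barcodes from 18% to 20% and 6 from 20% to 22%, and D21 had 27 and 28.

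Most of these barcodes would not have been called cells by their UMI total alone. In D0, 130 of the 141 lay under the cell cutoff, and in D21, 144 of the 182. They made up 7.98% of the D0 barcodes from 2000 UMIs to the cutoff (98 of 1228, Clopper-Pearson interval 6.53% to 9.64%) and 5.39% in D21 (95 of 1762, 4.38% to 6.55%). At or above the cutoff they were 0.147% in D0 (11 of 7503, 0.0732% to 0.262%) and 0.303% in D21 (38 of 12525, 0.215% to 0.416%). Over all barcodes of at least 1000 UMIs the shares were 1.49% (1.26% to 1.76%) and 1.20% (1.04% to 1.39%), intervals that overlap. The remaining barcodes under the cutoff differed between the libraries. Of those with 1000 to 2000 UMIs, 91.8% in D0 (626 of 682) and 45.1% in D21 (356 of 790) had under 1% MT- UMIs, so that the low end of the UMI range held barcodes nearly free of mitochondrial RNA as well as barcodes dominated by it.

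**Figure D1:**
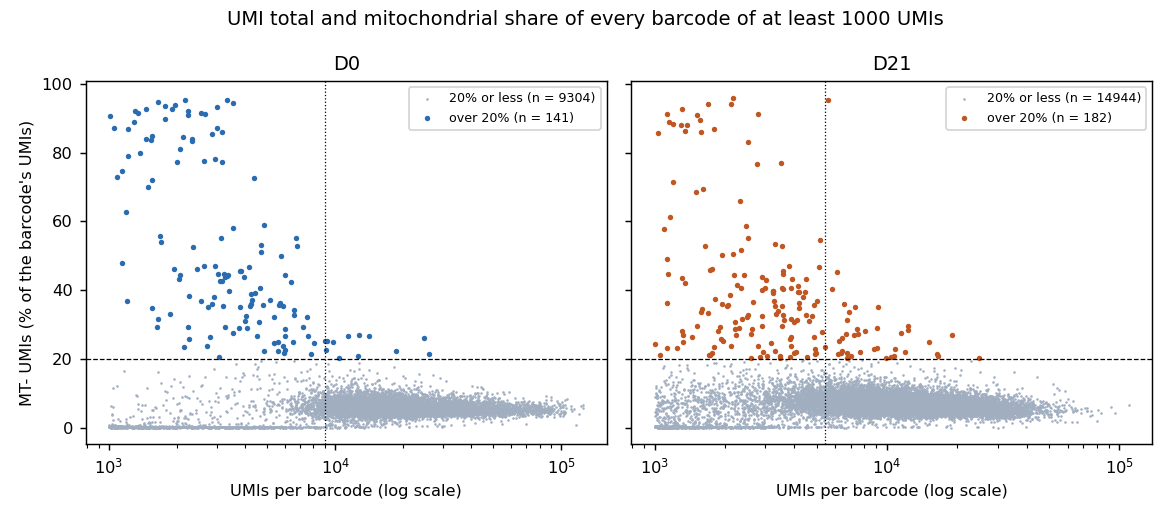
UMI total (log axis) and MT- share of every barcode with at least 1000 UMIs in D0 (left) and D21 (right), each point 1 barcode, coloured where the share exceeds 20% (dashed line), with the cell cutoff dotted. The 141 and 182 coloured barcodes lie mostly under the cutoff, and those over 80% MT- UMIs lie mostly at the low end of the UMI axis.

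The barcodes spread over the whole range of MT- share. In D0, 38 had 20% to 30% MT- UMIs, 50 had 30% to 50%, 23 had 50% to 80% and 30 had over 80%. In D21 these numbers were 77, 70, 17 and 18. Over 80% MT- UMIs thus occurred in 21.3% of the D0 barcodes (14.8% to 28.96%) and 9.89% of the D21 barcodes (5.97% to 15.2%). Little other RNA was left in them, a median of 185.5 UMIs outside MT- genes in D0 and 151.5 in D21, against 4546.5 and 3124 in barcodes of 20% to 30%. Summed over all selected barcodes, the non-MT- counts came to 368776 UMIs in D0 and 504359 in D21, from libraries of 199799447 and 199817213 UMIs. The single largest barcode held 5.52% and 3.93% of these sums. Only 35 barcode sequences reached 1000 UMIs in both libraries. One selected D0 barcode (9177 UMIs, 25.2% MT-) had 7669 UMIs in D21 and 1 selected D21 barcode (10729 UMIs, 20.8% MT-) had 2247 in D0, and neither was selected in the other library. In all, 90 of the 141 and 114 of the 182 barcode sequences held at least 1 UMI in the other library.

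The line's own markers were present in these barcodes. Levels here are counts per 1000000 UMIs (CPM) computed without the MT- genes. Vimentin (VIM), the intermediate filament of mesenchymal cells, stood at 1540 CPM in D0 and 2201 CPM in D21, and the hyaluronan receptor CD44 at 678 CPM and 742 CPM. Keratins and vimentin as a list were present but lower than in cells, for 7 of 7 measured genes in each library. Their sums were 2948 CPM against 7704 CPM in D0 cells and 4096 CPM against 6130 CPM in D21 cells. The luminal and epithelial markers PGR and CDH1 were at 0 UMIs in both libraries, which allows levels of up to 8.14 CPM in D0 and 5.95 CPM in D21 (3 UMIs), ESR1 was at 0 CPM and 3.97 CPM, and EPCAM was at 2.71 CPM and 13.9 CPM. A list of 16 markers of other cell types also holds EPCAM. Of these 16, 11 were at 0 in D0 and 12 in D21. Together they reached 40.7 CPM and 29.7 CPM on 15 UMIs each, against 23.7 CPM and 21.2 CPM in cells. The highest was the endothelial marker PECAM1 in D0, at 27.1 CPM, and EPCAM in D21, at 13.9 CPM.

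The rule used the sum of the MT- genes and not how it divides among them. MT-ATP6 took a larger part than in cells in both libraries and MT-ND4 a smaller one, and in D0 several other complex I subunits were lower still. MT-ATP6, a proton channel subunit of ATP synthase, made up 17.4% of MT- UMIs in the selected D0 barcodes against 13.4% in D0 cells, a ratio of 1.29 (1.28 to 1.31). In D21 it made up 18.1% against 15.1%, a ratio of 1.20 (1.19 to 1.21). Among barcodes with at least 500 MT- UMIs the median share of MT-ATP6 was 17.3% (quartiles 14.8% and 21.4%, n = 139) in D0 and 18.1% (15.4% and 21.1%, n = 167) in D21, and in cells it was 13.9% and 15.1%. The quartile ranges of selected barcodes and cells overlap, so the shift is one of the whole distribution and not a separation. In D0 it made up 15.5% at 20% to 30% MT- UMIs, 17.6% at 30% to 50%, 18.8% at 50% to 80% and 18.4% over 80%, and in D21 16.1%, 19.2%, 19.2% and 21.1%.

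MT-ATP6 cannot be read fully apart from its neighbours. In GENCODE 29 (GRCh38) its first 46 bases are also the last 46 of MT-ATP8, on the same strand at chrM:8527-8572, and its last base is the first of MT-CO3. The shared stretch is shown because a read that lies within it belongs equally to both genes. The capitals mark the start codon of MT-ATP6 and the stop codon of MT-ATP8.
MT-ATP8 and MT-ATP6, shared: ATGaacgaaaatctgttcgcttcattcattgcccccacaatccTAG

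Subunits of complex I took smaller parts. MT-ND2 made up 3.68% of MT- UMIs in the selected D0 barcodes and 4.89% in D0 cells, a ratio of 0.752 (0.736 to 0.767), and 4.60% and 5.02% in D21. MT-ND4 had ratios of 0.815 (0.802 to 0.829) and 0.858 (0.846 to 0.871). MT-ND5 was at 0.731 (0.706 to 0.756) in D0 and 0.951 (0.920 to 0.983) in D21. MT-ND4L, which shares 7 bases with MT-ND4, was at 0.689 (0.652 to 0.729) in D0 and 0.971 (0.919 to 1.02) in D21. MT-ND1, at 1.01 (0.992 to 1.03) and 0.972 (0.954 to 0.991), stayed near the cells. The cytochrome c oxidase subunits MT-CO1 and MT-CO2 had ratios of 0.931 and 0.985 in D0 and 0.908 and 0.977 in D21, and MT-CO3 had 1.10 and 1.01. For MT-ND3, MT-ND6, MT-ATP8 and MT-CYB the 8 ratios ran from 0.928 to 1.07.

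D21 differed from D0 in this division, for some genes as in cells and for others not. MT-ATP8 made up 0.825% of MT- UMIs in the selected D0 barcodes and 0.359% in D21, a ratio of 0.435 (0.402 to 0.471) against 0.430 in cells. MT-CYB, the cytochrome b of complex III, went from 7.18% to 9.22%, a ratio of 1.28 (1.26 to 1.31) against 1.21 in cells. MT-ND4 was 1.23 times its D0 share (1.21 to 1.26) and 1.17 times in cells. MT-ND2 was 1.25 times its D0 share (1.22 to 1.29) in the selected barcodes, while in cells it was 1.03 times. MT-ND5 had 1.06 (1.01 to 1.12) against 0.816 in cells, and MT-ND4L 1.01 (0.939 to 1.10) against 0.721.

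**Figure D2:**
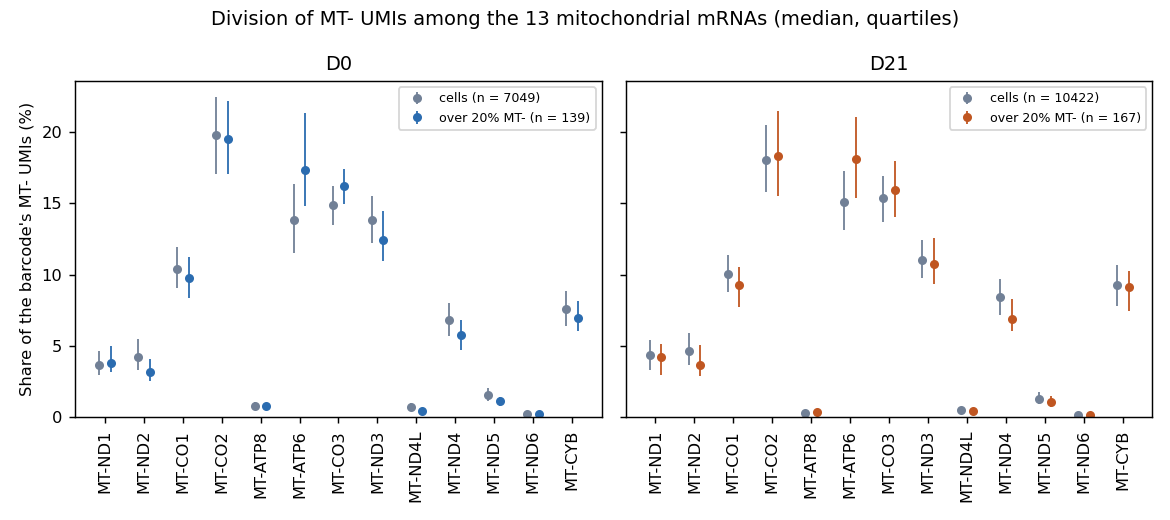
Share of each of the 13 MT- genes among a barcode's MT- UMIs in D0 (left) and D21 (right), as medians with quartiles over barcodes with at least 500 MT- UMIs, grey for cells and coloured for selected barcodes. MT-ATP6 has the clearest offset, with medians of 17.3% against 13.9% in D0 and 18.1% against 15.1% in D21.

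Without the MT- genes, many genes differed between selected barcodes and cells, more of them in D0. A gene was taken as measured where the higher of its levels was at least 50 CPM and would give at least 20 UMIs in the smaller sum. Of 5284 measured genes in D0, 2339 (44.3%) were at least 2-fold higher than in cells and 989 (18.7%) were at 0.5 of the cell level or less. Of 4710 in D21, 870 (18.5%) and 180 (3.82%) were past these sizes. In both libraries at once, 774 of 4431 genes (17.5%) were at least 2-fold higher and 140 (3.16%) were at 0.5 or less. These counts of higher genes rest in part on the filter, because a gene low in cells passed it only where it was high in the selected barcodes. Of the 2339 and 870 genes, 1616 and 552 had passed in this way. With genes taken by their level in cells alone, a choice made after seeing the data, 723 of 3270 (22.1%) were at least 2-fold higher and 989 (30.2%) at 0.5 or less in D0, and 318 of 3544 (8.97%) and 180 (5.08%) in D21. The median log2 ratio was then -0.25 in D0 and -0.11 in D21, and with the filter on the higher level it was 0.80 and 0.30, so a list's median is set beside both. Across the genes taken by their level in cells, Spearman's correlation between selected barcodes and cells was 0.45 in D0 and 0.73 in D21. For barcodes under the cell cutoff with at most 20% MT- UMIs, thinned to the same summed depth of 368776 and 504359 UMIs, it was 0.85 and 0.93. Genes are not independent replicates, and these are descriptions.

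Nuclear-retained RNA stood highest. MALAT1 (chr11:65497688-65506516, plus strand) was at 54496.5 CPM in the selected D0 barcodes and 11250 CPM in D0 cells, 4.84 times as much (4.78 to 4.91), and at 48103 CPM and 15452 CPM in D21, 3.11 times as much (3.07 to 3.15). NEAT1, the scaffold of paraspeckles, was at 3870 CPM against 863 CPM in D0 (4.48 times, 4.25 to 4.72) and 3248 CPM against 882 CPM in D21 (3.68 times, 3.51 to 3.87). TUG1, a noncoding RNA found in nucleus and cytoplasm, had ratios of 2.34 (1.51 to 3.46) and 1.88 (1.28 to 2.65), and KCNQ1OT1, an antisense RNA of an imprinted locus, 2.34 (1.52 to 3.47) and 3.02 (2.18 to 4.09). All 4 measured members of the list of 6 were higher in both libraries, 4 past 2-fold in D0 and 3 in D21, with median log2 ratios of 1.71 and 1.63. TUG1 and KCNQ1OT1 were under 50 CPM in cells and passed the filter by their level in the selected barcodes. Their direction was thus set by the filter, and only MALAT1 and NEAT1 could have gone either way. Barcodes of 10 to 100 UMIs, which mostly hold free RNA, had 4104 CPM of MALAT1 in D0 and 4070 CPM in D21.

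Cytosolic ribosomal protein genes were lower without exception. All 48 genes of the large subunit and all 32 of the small subunit were measured and lower in both libraries. In D0 every one was at 0.5 or less, and in D21 this was 0 of 48 and 1 of 32. Median log2 ratios were -1.67 and -1.74 in D0 and -0.63 and -0.72 in D21. Summed large-subunit genes were at 36646 CPM against 116836 CPM in D0 and at 78958 CPM against 120841 CPM in D21, while barcodes of 10 to 100 UMIs had 157780 CPM and 168010 CPM. RPS18 was at 2224 CPM against 6654 CPM in D0 and 6501 CPM against 9111 CPM in D21, and RPLP1 at 1594 CPM against 4743 CPM and 3961 CPM against 5739 CPM. Many of these genes have near-identical pseudogene copies, so single members are less certain than the sums. Translation factors followed, with 18 of 20 lower in D0 and 19 of 20 in D21, and the elongation factor EEF1A1 at 1630 CPM against 5444 CPM and 3198 CPM against 5478 CPM.

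In the sums over all selected barcodes, nuclear-encoded subunits of the respiratory complexes were lower than in cells. Of 38 complex I genes encoded in the nucleus, 36 were lower in D0, 31 of them at 0.5 or less, and 34 were lower in D21, none at 0.5 or less. For complex IV the counts were 12 of 12 lower in D0, 11 at 0.5 or less, and 11 of 12 in D21, and for complex V 18 of 18 in both libraries. The median log2 ratios were -1.38, -1.48 and -1.51 in D0 and -0.48, -0.42 and -0.52 in D21. COX7C, a small subunit of cytochrome c oxidase, was at 293 CPM against 826 CPM in D0 and 543 CPM against 729 CPM in D21. ATP5F1E of ATP synthase was at 708 CPM against 2035 CPM and 1152 CPM against 1606 CPM. Mitochondrial ribosomal proteins were lower for 57 of 61 measured genes in D0 and 61 of 63 in D21, with medians of -1.32 and -0.73. Import and proteostasis genes had medians of -1.27 and -0.63. Genes of mitochondrial genome expression differed from these lists, with 7 of 10 measured members higher in D0 (median 0.54) and 4 of 8 in D21 (median -0.18), and sums of 0.763 (0.692 to 0.839) and 0.837 (0.775 to 0.902) times those of cells. Over all genes that passed the same filter, 3455 of 5284 and 2802 of 4710 were higher, with medians of 0.80 and 0.30. Neither median of this list was above these. LRPPRC, which stabilizes mitochondrial mRNA, was at 165 CPM against 120 CPM in D0 (ratio 1.38, 1.05 to 1.77) and 151 CPM against 142 CPM in D21 (1.06, 0.835 to 1.33). SLIRP, SSBP1 and TFAM of the same list were lower than in cells. Their ratios were 0.316, 0.433 and 0.362 in D0 and 0.648, 0.596 and 0.570 in D21. Over 80% MT- UMIs the sums of complexes I, IV and V were nearer to those of cells or, for complex V in D21, above them. These sums rest on few UMIs, 6385 non-MT- UMIs over all genes in D0 and 3118 in D21. No interval was computed for them, so a difference from cells was not tested. Complex I there stood at 7361 CPM in D0 and 9301 CPM in D21, against 9354 CPM and 9534 CPM in cells, complex IV at 5482 CPM and 5773 CPM against 6121 CPM and 6070 CPM, and complex V at 7518 CPM and 11225 CPM against 9097 CPM and 8134 CPM.

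Other abundant cytosolic mRNAs shared this direction. The median log2 ratio was -1.25 in D0 and -0.52 in D21 for 28 proteasome genes, -1.16 and -0.56 for the actin cytoskeleton, -1.46 and -0.40 for S100 proteins and annexins, -1.54 and -0.34 for 3 metallothioneins, and -0.69 and -0.51 for glycolysis. S100A6, a calcium-binding protein and the most abundant of its list, was at 4246 CPM against 13768 CPM in D0 and 9146 CPM against 11774 CPM in D21. GAPDH was at 1250 CPM against 5180 CPM and 2012 CPM against 3321 CPM. Heat shock proteins had medians of -0.94 and -0.44. Lysosomal genes had medians of 0.27 and 0.29, while their sums were 0.863 (0.811 to 0.917) and 1.02 (0.966 to 1.08) times those of cells.

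Clustered histone genes were the lowest list of at least 3 measured genes, with medians of -1.89 and -1.22. HIST1H4C, a histone H4 gene expressed in S phase (chr6:26103876-26104310, plus strand), was the gene furthest below cells by the rule that took the ratio nearer to 1 of the 2 libraries. It was at 103 CPM against 1312 CPM in D0, a ratio of 0.0786 (0.0556 to 0.108), and at 178 CPM against 794 CPM in D21, a ratio of 0.225 (0.181 to 0.276). Several H4 genes code for the same protein, and their reads may not be fully separable. DNA replication genes as a list were closer to cells, with summed ratios of 0.784 (0.718 to 0.855) and 0.799 (0.742 to 0.860). Mitosis genes had summed ratios of 0.869 and 0.735. The rest of the 10 lowest were TOMM22 (outer membrane import receptor), PTPMT1 (a phosphatase of cardiolipin synthesis), CENPW (centromere protein), TPRKB, HIST2H2AC, MRPL14 and MRPS17 (mitochondrial ribosome), LSM2 (splicing) and ARHGDIB. Their ratios lay between 0.185 and 0.365 in D0 and between 0.209 and 0.365 in D21, on 5 to 43 UMIs in the selected D0 barcodes.

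Noncoding RNAs were 6 of the 10 genes furthest above cells, of which all but NEAT1 were under 50 CPM in cells and passed the filter by their level in the selected barcodes. The 10 were AL355612.1, ZNF875, LINC01473, EFCAB13, L3HYPDH, NEAT1, AF117829.1, CHEK2 (a DNA damage checkpoint kinase), AL138828.1 and AL645568.1. Apart from NEAT1 they rested on 20 to 51 UMIs in each library. LINC01473 (chr2:186032891-186083233, minus strand) was at 94.9 CPM against 16.3 CPM in D0, a ratio of 5.81 (4.04 to 8.09), and 89.2 CPM against 22.4 CPM in D21, a ratio of 3.98 (2.90 to 5.33). CHEK2 was at 73.2 CPM against 14.3 CPM and 61.5 CPM against 17.2 CPM. AL138828.1 and AL645568.1 are annotated as antisense genes, and no source used here says whether the counting used the strand. Among genes taken by their level in cells alone, 29 of 51 noncoding genes in D0 were at least 2-fold higher and 3 at 0.5 or less. In D21 these were 22 and 0 of 54. The median log2 ratios of the noncoding genes were 1.32 and 0.88. Protein-coding genes taken in the same way had medians of -0.27 and -0.12. Over every noncoding gene, measured or not, the sum was 108459 CPM against 32865 CPM in cells in D0 and 92438 CPM against 38605 CPM in D21, most of it MALAT1 in the selected D0 and D21 barcodes.

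Gene span ordered the ratios. Protein-coding genes taken by their level in cells alone were divided into 4 groups of equal size by the length of genome they cover in GENCODE 29. From the shortest to the longest group the median log2 ratios were -1.39, -0.79, 0.16 and 1.30 in D0 and -0.60, -0.39, 0.13 and 0.80 in D21. Of the longest group 555 of 805 genes in D0 were at least 2-fold higher and 16 at 0.5 or less, and of the shortest group 0 and 578 of 805. In D21 these were 251 and 0 of 873 and 2 and 111 of 873. No source used here says whether intronic reads were counted.

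Fatty acid synthesis and desaturation genes had median log2 ratios of 0.78 in D0 and 0.44 in D21, with 11 of 13 and 7 of 10 measured members higher. Over all genes that passed the same filter the medians were 0.80 and 0.30, with 3455 of 5284 and 2802 of 4710 higher. The D0 median of the list was thus no higher than that of all genes. The sums of the fatty acid list were 1.73 times (1.61 to 1.85) and 1.42 times (1.31 to 1.53) those of cells. SREBF2, the transcription factor that drives cholesterol genes, was 2.86 times as high in D0 (2.27 to 3.55) and 2.04 times in D21 (1.50 to 2.71). ACACA, which commits carbon to fatty acid synthesis, was 3.33 times (2.83 to 3.89) and 2.58 times (2.17 to 3.05) as high. The cholesterol synthesis enzymes themselves were not above cells, with summed ratios of 0.945 (0.874 to 1.02) and 0.868 (0.792 to 0.949). Integrins and surface receptors had medians of 1.05 and 0.32 and matrix genes 1.02 and 0.45. Among death regulators, BCL2L1, which opposes apoptosis, was at 423 CPM against 203 CPM in D0 and 224 CPM against 164 CPM in D21. BAX and BAD of the list were lower, at 0.377 and 0.350 times cells in D0 and 0.640 and 0.483 in D21. PMAIP1 had ratios of 1.10 (0.772 to 1.53) and 0.922 (0.690 to 1.21). Of the 26 genes of the list, 10 and 9 were measured and 7 and 5 of these were higher. The median log2 ratios were 0.63 and 0.12, below those of all genes. All 26 had summed ratios of 1.26 (1.15 to 1.37) and 1.00 (0.920 to 1.09). The p53 targets were 1.40 times (1.25 to 1.58) and 1.51 times (1.37 to 1.67) as high in sum, with 3 of 5 and 2 of 4 measured members higher and median log2 ratios of 0.78 and 0.22. Neither median was above the 0.80 and 0.30 of all genes that passed the same filter. SAT1, a polyamine-degrading enzyme, was at 377 CPM against 221 CPM and 381 CPM against 152 CPM, and without it the sums were 1.21 times (1.03 to 1.42) and 1.09 times (0.938 to 1.25) those of cells. ATF4 targets had a summed ratio of 1.03 in both libraries, with median log2 ratios of -0.10 and 0.35.

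The sums hide barcodes of several kinds. MALAT1 made up a median of 1.59% of a selected barcode's non-MT- UMIs in D0 (range 0% to 32.0%) and 3.23% in D21 (0% to 23.6%), against 0.891% and 1.35% in cells. It exceeded 5% in 48 of 141 D0 barcodes (34.0%, 26.3% to 42.5%) and 73 of 182 D21 barcodes (40.1%, 32.9% to 47.6%), against 2.11% and 1.42% of cells. It was not detected in 25 barcodes of each library (17.7%, 11.8% to 25.1%, and 13.7%, 9.09% to 19.6%), a smaller share than in barcodes under the cell cutoff with at most 20% MT- UMIs, where it was missing in 50.5% (915 of 1812) and 22.3% (548 of 2457). Ribosomal protein genes made up a median of 6.22% in D0 and 10.6% in D21, against 20.4% and 21.7% in cells. Over the selected barcodes the ranks of these 2 shares ran opposite, with Spearman's correlation of -0.71 in D0 (n = 141) and -0.81 in D21 (n = 182), which are descriptions over barcodes of 1 library whose shares come from the same total.

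Read against the central 95% of cells (13.8% to 27.0% ribosomal protein UMIs in D0 and 14.5% to 29.5% in D21), 3 kinds of barcodes could be counted, a division chosen after the values were seen and used for description. Ribosomal protein UMIs were under that range in 96 D0 barcodes (68.1%) and 113 D21 barcodes (62.1%). These had a median MALAT1 share of 4.73% and 6.44%, and in sum 62674 CPM and 66605 CPM of MALAT1 and 1520 CPM and 3098 CPM of nuclear complex IV genes. MALAT1 was also above its own range in cells in 48 of the 96 and 78 of the 113. Ribosomal protein UMIs were within the range in 33 D0 barcodes, whose median MT- share was 86.9% and of which 20 had over 80% MT- UMIs. In D21 also 33 were within it, with a median MT- share of 27.2%. Above the range were 12 D0 barcodes (8.51%) and 36 D21 barcodes (19.8%). This kind was not particular to a high MT- share, since 65.6% (1188 of 1812) and 30.4% (748 of 2457) of barcodes under the cell cutoff with at most 20% MT- UMIs also lay above the range, while 2.26% and 2.97% of them lay under it. The 12 and 36 barcodes had little MALAT1 or NEAT1, with median MALAT1 shares of 0.0620% and 0% and sums of 680 CPM and 356 CPM of MALAT1 and 61.8 CPM and 38.1 CPM of NEAT1. They had more mRNA of S100 proteins and annexins than cells, 41028 CPM and 43913 CPM, where D0 and D21 cells had 24308 CPM and 21403 CPM. Glycolysis genes were lower than in cells in D0, at 12729 CPM against 14762 CPM. In D21 they were higher, at 10654 CPM against 9292 CPM. Nuclear complex IV genes were at 9454 CPM and 11251 CPM in them, above the 6121 CPM and 6070 CPM of cells. Mitosis genes were at 1977 CPM and 1105 CPM there, against 4509 CPM and 4252 CPM in cells.

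**Figure D3:**
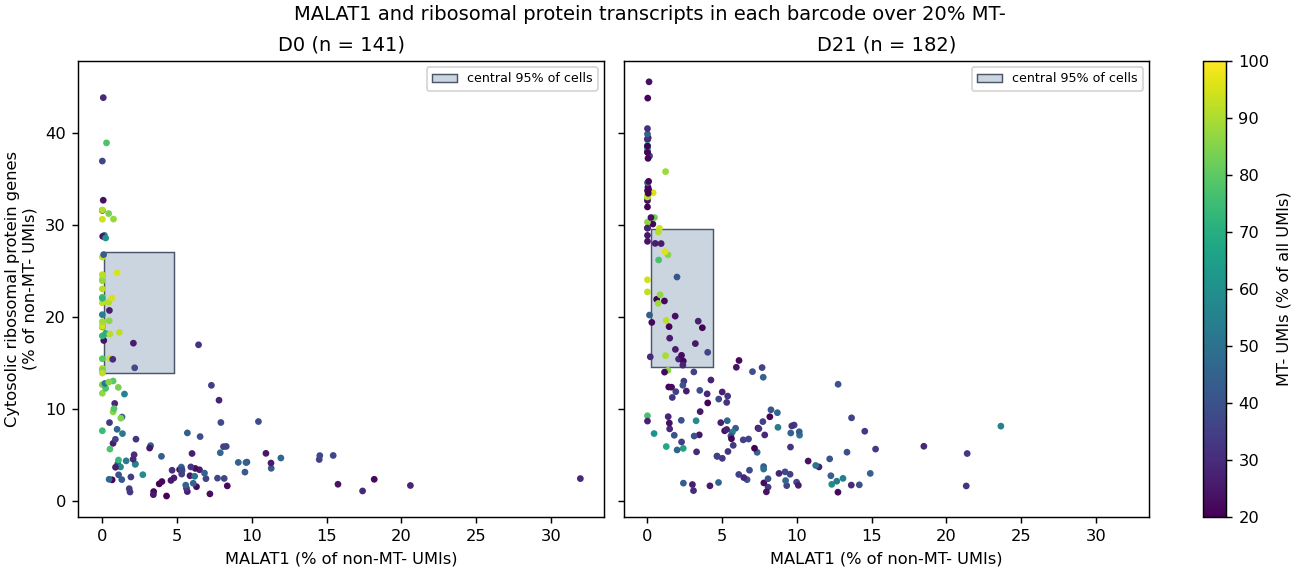
Each point is 1 selected barcode of D0 (left, n = 141) or D21 (right, n = 182), placed by its MALAT1 share and its ribosomal protein share of non-MT- UMIs and coloured by MT- share, with the central 95% of cells as a grey box. One arm runs to high MALAT1 with few ribosomal protein UMIs, the other lies at MALAT1 near 0 with as many ribosomal protein UMIs as cells or more, and few points (14 and 26) lie in the box. A further 48 D0 and 35 D21 points lie under the ribosomal protein range of cells without MALAT1 above its own range.

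MT- share and these kinds moved together differently in the 2 libraries. In D0 the median MALAT1 share was 4.44% in barcodes of 20% to 30% MT- UMIs, 5.60% at 30% to 50%, 0.508% at 50% to 80% and 0% over 80%. In D21 these medians were 1.87%, 6.53%, 5.68% and 0.722%. MALAT1 exceeded 5% in 1 of 23 D0 barcodes of 50% to 80% (4.35%, 0.110% to 21.9%) and in 9 of 17 in D21 (52.9%, 27.8% to 77.0%). Over 80%, it did so in 0 of 30 and 0 of 18, which allow shares of up to 11.6% and 18.5%. Spearman's correlation between MT- share and ribosomal protein share was 0.57 in D0 and -0.14 in D21, both descriptions over barcodes of 1 library. Large-subunit genes over 80% MT- UMIs stood at 103994 CPM in D0 and 151058 CPM in D21, on 6385 and 3118 non-MT- UMIs in sum, close to cells in D0 and to the 168010 CPM of the 10 to 100 UMI barcodes in D21. The part of free RNA in these few UMIs was not tested.

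By UMI total the order was similar in D0. Large-subunit genes went from 97012 CPM in barcodes of 1000 to 2000 UMIs to 42321 CPM up to 5000 and 30403 CPM over 5000. In D21 they went from 105714 CPM to 68192 CPM and 82865 CPM. At equal depth the selected barcodes held slightly more genes than cells. Thinned to 500 non-MT- UMIs, a selected barcode held a median of 429 genes in D0 (n = 103, with 38 shallower barcodes left out) and 414 in D21 (n = 159, 23 left out), against 396 and 391 in 1000 cells drawn from each library. Unthinned medians of the same barcodes were 1661 and 1438 genes against 5004.5 and 3869.

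D21 was set against D0 in the selected barcodes, beside the same ratio in cells. Of 5100 measured genes, 350 (6.86%) were at least 2-fold higher in D21 and 538 (10.5%) were at 0.5 or less. The median log2 ratio of these genes was -0.28 in the selected barcodes and 0.03 in cells. The families lowest against cells in D0 were higher in D21. All 48 large-subunit genes were higher in D21, 33 of them past 2-fold, and their sum was 2.15 times that of D0 (2.11 to 2.20), where in cells it was 1.03 times. All 32 small-subunit genes were also higher, 23 past 2-fold, with a sum 2.24 times that of D0 (2.19 to 2.29) and 1.10 times in cells. Nuclear complex IV genes were 2.08 times (1.93 to 2.26) as high and in cells 0.992 times. MALAT1 was at 0.883 of its D0 level (0.866 to 0.899) in the selected barcodes and 1.37 times its D0 level in cells. The sizes, and for MALAT1 the direction, depended on MT- share. Within barcodes of 30% to 50% MT- UMIs the sum of large-subunit genes was 1.77 times that of D0 and MALAT1 was 1.25 times, higher and not lower. Nuclear-retained RNAs as a list were 1.23 times there, where cells had 1.35. Within 20% to 30% MT- UMIs this list was 0.618 times its D0 level and large-subunit genes were 2.55 times.

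Lipid genes were lower in D21 in the selected barcodes as in cells. Of all 5100 measured genes, 3352 were lower in D21 in the selected barcodes and 2264 in cells. A gene under the floor in D21 could pass the filter only by its D0 level. The list sums take every gene of a list. All 11 measured cholesterol synthesis genes were lower, 5 of them at 0.5 or less, and their sum went from 1795 CPM to 962 CPM, a ratio of 0.536 (0.475 to 0.603) against 0.583 in cells. INSIG1, the sterol-regulated anchor of SREBP and among the 10 genes furthest down, went from 141 CPM to 19.8 CPM, a ratio of 0.141 (0.0637 to 0.280) against 0.317 in cells. It passed the filter by its level in the selected D0 barcodes alone, which set its direction. All 12 fatty acid genes were lower, 6 at 0.5 or less, with a summed ratio of 0.582 (0.524 to 0.646) against 0.710. Within barcodes of 30% to 50% MT- UMIs the summed ratios of the cholesterol and fatty acid lists were 0.562 and 0.564. Hypoxia-induced genes had a summed ratio of 0.664 (0.591 to 0.746) where cells had 0.665. Genes of the methionine cycle and of vitamin B12 handling had 0.877 (0.753 to 1.02) and 0.943 in cells.

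The other genes furthest down in D21 were PLXNA4, TNC, RERGL, PFKFB4, PIK3C2G, COL6A1, AC005699.1, PNPLA3 and ENPP1, with ratios from 0.0877 to 0.201. COL6A1, a collagen VI chain, went from 130 CPM in D0 (28 of 141 barcodes with a UMI) to 21.8 CPM in D21 (10 of 182), a ratio of 0.168 (0.0785 to 0.327) where cells had 0.686. The ratio of these ratios was 0.244 (0.127 to 0.471). All 10 genes furthest down except ENPP1, and so COL6A1, TNC and PFKFB4 too, passed the filter by their level in the selected D0 barcodes alone. Their direction was thus set by the filter. The genes furthest down or up were also ranked on the D21 to D0 ratio, so a larger change than in cells was favoured by the choice. These values and their intervals therefore do not test a difference from cells. TNC, the matrix glycoprotein tenascin C, went from 54.2 CPM to 5.95 CPM on 20 and 3 UMIs, a ratio of 0.110 (0.0209 to 0.370) where cells had 0.757. PFKFB4, a regulator of glycolytic flux, had 0.160 (0.0686 to 0.335) and ENPP1, an ectonucleotidase, 0.201 (0.132 to 0.298), against 0.441 and 0.451 in cells.

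The 10 genes furthest up were AF121898.1, ISG15, SAA1, IGFBP6, BMPER, IFI27, POLR2I, CHCHD10, C9orf16 and EIF3G, and in 3 of them 1 barcode held 49.1% to 81.6% of the D21 UMIs. This barcode, of 16419 UMIs and 21.4% MT- UMIs, held 192 of 332 UMIs of ISG15, an interferon-induced ubiquitin-like protein, 200 of 407 of SAA1, an acute-phase serum amyloid, and 168 of 206 of IGFBP6, which binds insulin-like growth factors. Without it IGFBP6 in D21 was at 77.3 CPM and not 408 CPM, and ISG15 at 285 CPM and not 658 CPM. With the richest barcode for the gene left out of each library, the D21 to D0 ratio of IGFBP6 went from 5.79 to 1.42, of ISG15 from 7.83 to 5.81 and of SAA1 from 5.84 to 5.09, where in cells these were 1.23, 1.32 and 3.19. Within 30% to 50% MT- UMIs ISG15 had a ratio of 1.92 (1.11 to 3.45) and SAA1 12.7 (4.74 to 47.99). IFI27, also induced by interferon, was spread over 51 of 182 D21 barcodes and went from 51.5 CPM to 240 CPM, a ratio of 4.66 (2.86 to 8.002) against 1.698 in cells, but within 30% to 50% MT- UMIs it was 1.77 (0.639 to 5.62), an interval that holds 1. POLR2I and EIF3G, small genes of RNA polymerase II and of translation initiation, were 4.68 times and 4.08 times as high, against 1.20 and 0.957 in cells. BMPER, a secreted modulator of BMP signals, was 6.03 times as high (2.15 to 23.4) on 4 and 33 UMIs, against 3.15 in cells. AF121898.1, BMPER, IFI27, POLR2I, CHCHD10, C9orf16 and EIF3G passed the filter by their level in the selected D21 barcodes alone. Their direction was thus set by the filter.

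**Figure D4:**
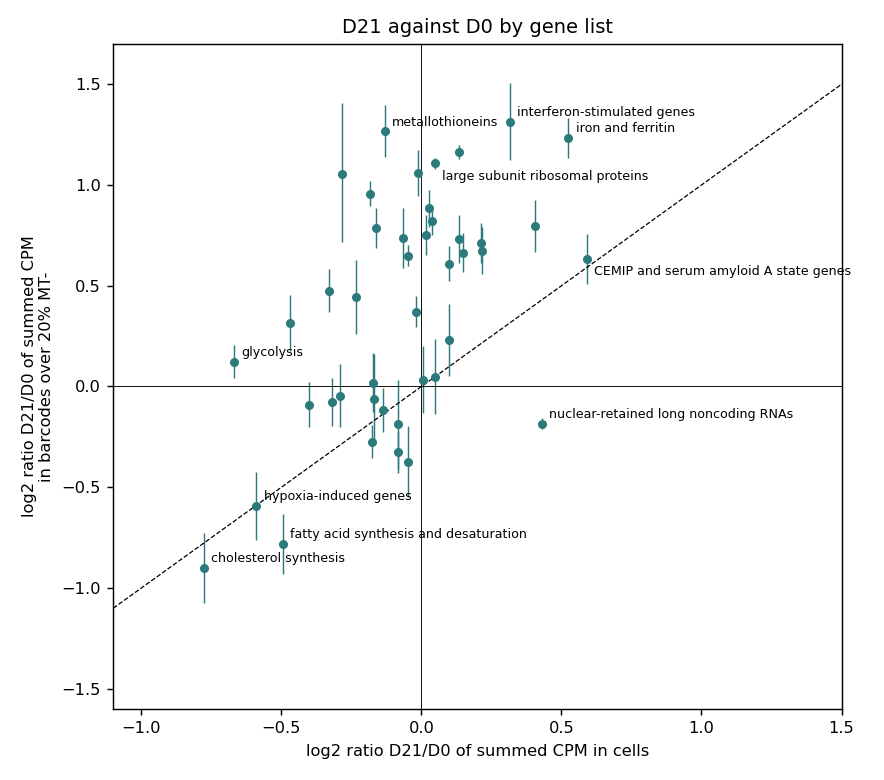
Log2 ratio of D21 to D0 of the summed CPM of the reported gene lists with at least 3 measured members, in cells (horizontal) and in selected barcodes (vertical, with 95% counting intervals), with equality dashed. Cholesterol synthesis, fatty acid and hypoxia lists lie low on both axes, whereas ribosomal protein, ferritin, metallothionein and interferon lists lie above equality and nuclear-retained RNAs below it.

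Lists of genes that led clusters of cells in earlier work on these libraries, and so are not independent evidence of a direction, were followed too. CEMIP and serum amyloid A state genes had a summed D21 to D0 ratio of 1.55 (1.42 to 1.69) in the selected barcodes and 1.51 in cells. AGR2 state genes had 1.36 (1.20 to 1.54) against 0.850, although 5 of their 8 measured members were lower in D21 and their median log2 ratio was -0.72. The 3 MMP1 state genes had few UMIs, and their members did not reach the measured level in D0.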

How the data were processed

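The deposited files hold UMI counts, made by the authors with Cell Ranger 4 (per the file headers) on GRCh38 (per the labels) from 10x Genomics 3' v3.1 libraries, with all barcodes kept and no normalization. No source used here names the gene annotation, the handling of intronic reads or a cell filter for these counts. Samples were grouped by the labels. Barcodes were selected on at least 1000 UMIs and over 20% MT- UMIs, no doublet caller was run and doublets were kept. Counts were summed over barcodes and scaled to CPM without MT- genes. Ratios have exact conditional intervals for 2 Poisson counts and shares exact Clopper-Pearson intervals, at 95%. With 1 library per condition no p-value was computed, and a gene was counted where its ratio reached 2 or 0.5. UMIs remove most PCR duplicates, but the intervals leave out variation between barcodes and cultures.

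Members and gene lists were chosen with earlier results of these data known. Named genes are the 10 highest and 10 lowest by members to cells (ratio nearer to 1 of both libraries, same side) and by D21 to D0, every MT- gene, the line's markers and up to 4 abundant genes per list. Gene spans came from GENCODE 29, matched by gene identifier for 99.9% of measured D0 genes. Ratios and intervals were tested on simulated data. Scripts ran in Python 3.11.15 (scipy 1.17.1, numpy 2.4.6, pandas 2.3.3). Alternatives changed both thresholds, the comparison barcodes, the weighting, the level floor and the denominator. One gene and the list that holds it are not reported here.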

Additional observations from a re-analysis of the deposited data

Results flagged for a closer look

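For 2 gene lists the direction against cells differed between the libraries, with both counting intervals clear of 1, and the difference was not tested. Interferon-stimulated genes had a summed ratio of 0.609 (0.542 to 0.683) in D0 and 1.22 (1.14 to 1.30) in D21. MHC class I presentation genes had 0.772 (0.728 to 0.817) in D0 and 1.09 (1.05 to 1.13) in D21. The D21 barcode of 16419 UMIs named above held 298 of the 997 interferon-stimulated UMIs and 217 of the 2662 MHC class I UMIs of that library. Without the richest barcode of each library the interferon ratios were 0.497 (0.436 to 0.565) and 0.876 (0.812 to 0.944), both below 1, and the MHC class I ratios were 0.709 (0.667 to 0.754) and 1.03 (0.987 to 1.07).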

How the results depend on the processing

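With MT- shares over 15% or 30% the D21 library had 287 or 105 such barcodes. Over 15%, genes at least 2-fold higher than in cells numbered 152 in both libraries and 181 in D21, genes at 0.5 or less 17 in both, 502 in D0 and 27 in D21, and 126 genes were at least 2-fold higher in D21 than D0. The summed MMP1 state genes in D0 turned from 0.288 to 1.26 there. Over 30%, 978 genes were higher in D0, 371, 625 and 452 were low in both, in D0 and in D21, and D21 against D0 gave 77 higher and 149 lower genes. With barcodes under the cell cutoff as comparison 1197 genes were higher in both. With each barcode weighing the same, 502 were higher in both, 888 were lower in D21 than D0, and HIST2H2AC in D0 turned from 0.221 to 1.64. Measured at 200 CPM, fewer genes qualified, with 143, 505 and 151 higher and 46, 481 and 52 low in both, D0 and D21, and 163 higher and 90 lower in D21 than D0. Without ribosomal protein genes in the denominator, 275 and 348 genes were low in both and in D21. Within 30% to 50% MT- UMIs, 428 and 717 genes were higher in both and in D0, 333, 552 and 425 were low in both, D0 and D21, and 119 and 124 were higher and lower in D21 than D0. The D21 to D0 ratio of IGFBP6 was 0.807 over 30%, 0.759 within 30% to 50% and 0.901 without the 10 largest barcodes of each library. Of the 95 ratios of named genes and list sums past 2-fold or 0.5, all stayed past it with 500 or 2000 UMIs as minimum, without the barcodes shared at 1000 UMIs or with at most 50% MT- UMIs, whereas 65 did over 15% and 62 with equal weights. The settings within 30% to 50%, at most 50%, without shared barcodes, without the 10 largest and by the level in cells were chosen after seeing the data. With genes taken by their level in cells alone, 253, 723 and 318 genes were higher in both, D0 and D21. The cause of the other moves was not tested. No paired analysis was possible because each condition has 1 library. Depth limited single genes most over 80% MT- UMIs.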

Other observations

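Of 4 genes outside the MT- set, picked after their values were seen for a high level in barcodes of over 80% MT- UMIs, AC105402.3 had at least 5 UMIs there in both libraries and the others had at most 1 in D21. AC105402.3, a noncoding gene, had 2036 CPM there in D0 (13 UMIs, 1084 to 3482) against 7.05 CPM in cells, and 1604 CPM in D21 (5 UMIs, 521 to 3742) against 4.56 CPM. Counted per 100000 MT- UMIs it stood at 23.5 (12.5 to 40.1) over 80% against 11.4 (10.8 to 12.1) in D0 cells, and 16.6 (5.39 to 38.8) against 6.53 (6.08 to 7.01) in D21 cells. In barcodes of 10 to 100 UMIs it was 25.3 (16.5 to 37.1) and 27.8 (16.2 to 44.5), no lower than over 80%. LINGO1 had 940 CPM there in D0 (6 UMIs, 345 to 2045) against 5.87 CPM in cells, and 10.8 (3.97 to 23.6) per 100000 MT- UMIs against 9.52 (8.94 to 10.1), and barcodes of 10 to 100 UMIs had 42.9 CPM and 173 (149 to 201). In D21 only 1 LINGO1 UMI was counted there. MTRNR2L12, a nuclear gene that resembles part of the mitochondrial ribosomal RNA, had 14 UMIs over all selected D0 barcodes and 16 in D21, which is 5.78 (3.16 to 9.70) and 6.38 (3.64 to 10.4) per 100000 MT- UMIs against 3.79 and 3.74 in cells. FBXO42 and BCOR had 7 and 5 UMIs over 80% in D0 and 0 in D21, and MTRNR2L8 had 1 and 0. Whether these UMIs come from mitochondrial RNA was not tested.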
